A study of Mus musculus with 32 samples.

Results

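UDP-glucuronosyltransferase (Ugt) and sulfotransferase (Sult) transcripts were followed in mouse liver through every gene whose symbol begins with Ugt1, Ugt2, Ugt3 or with Sult and a digit, with the pseudogene symbols that carry -ps left out. The rule picked 41 of the 41585 genes in each of the raw count tables, 20 Ugt and 21 Sult genes. Ugt8a, which had 64 counts over the 32 libraries, fell outside it. Both enzyme families attach a polar group to lipophilic molecules, mostly in hepatocytes, so that the products leave in bile or urine. Ugt enzymes of the endoplasmic reticulum transfer a sugar, usually glucuronic acid, to bilirubin, bile acids, steroids, thyroid hormones and drugs, and the cytosolic Sult enzymes transfer sulfate from the donor PAPS to phenols, amines, steroids and bile acids. Several of these genes are known for different levels in male and female mouse liver.

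Bulk liver RNA was sequenced from wild-type (WT) mice bought from a supplier and from Cyp2b-null mice, a line in which Cyp2b9, Cyp2b10 and Cyp2b13 were deleted with CRISPR. Both genotypes carry the strain label C57BL/6 and share the C57BL/6J background. Mice of both genotypes were 10 weeks old when they were put on normal chow (ND) or on CDAHFD, a high fat diet with 62% fat and 0.1% methionine that lacks choline and supplies amino acids in free form, for 8 weeks. Sex, genotype and diet made 8 groups with 4 libraries each: ND-fed and CDAHFD-fed WT females, ND-fed and CDAHFD-fed Cyp2b-null females, and the same 4 kinds of males. CDAHFD serves as a model of steatohepatitis. The WT mice were bought and are not described as littermates of the Cyp2b-null mice, so genotype and source cannot be told apart.

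Total counts per library ran from 2906411 to 10166959. Levels are given as CPM, counts divided by a library size corrected with TMM factors. Detection had its floor at 3 counts, which is 0.249 to 1.15 CPM over the libraries and covers counting error only. Changes are log2 changes with their standard error (SE) from edgeR, fitted over the 4 groups of a sex, and a call means an adjusted p under 0.05 over all genes tested. Where no other setting is named, called and not called refer to these fits. The low-count filter left 13226 genes in females, 13460 in males and 14020 in the fit over both sexes. Of the 41 members, 28 passed it in females (15 Ugt, 13 Sult), 23 in males (16 Ugt, 7 Sult) and 29 in both sexes together (16 Ugt, 13 Sult). The filter keeps a member that is present in 1 group only, and such a member is likely to be called, so the counts below describe the members and support nothing.

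The other 12 members did not pass this filter in any fit. Of these, Ugt1a10, the olfactory Ugt2a1 and Ugt2a2, Sult1c1 and Sult6b2 had no count in any of the 32 libraries. Ugt1a2, Sult2a4, Sult2a6, Sult2b1, Sult3a2, Sult4a1, known mainly from brain, and Sult6b1 had a few counts each, with at most 22 in a library (Sult3a2). Sult3a2 had 2, 16, 5 and 22 counts in the ND-fed WT females, 5, 1, 4 and 9 in the ND-fed Cyp2b-null females, none in the CDAHFD-fed WT females and 1, 0, 0 and 0 in the CDAHFD-fed Cyp2b-null females. Its libraries with more than 1 count were all from ND-fed females. With a filter of 1 CPM in 4 libraries Sult3a2 was tested and called lower on CDAHFD in WT (adjusted p = 0.000616) and Cyp2b-null females (adjusted p = 0.0146) and higher in ND-fed WT females than males (adjusted p = 0.000867), and the same 3 calls came with no filter. Sult2a1, Sult2a2, Sult2a3, Sult2a5, Sult2a7 and Sult3a1 passed in females and not in males, and Ugt1a7c passed in males and not in females.

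The tissue label held against its markers. All 6 hepatocyte markers were present, with Alb, the plasma albumin gene, the most abundant in each group. Their sum was 127975, 189386, 154963 and 140687 CPM in ND-fed and 100368, 84623, 91890.1 and 73651 CPM in CDAHFD-fed WT females. In Cyp2b-null females it was 151524, 132421, 163379 and 166312 CPM on ND and 99533, 88049.9, 113965 and 71689 CPM on CDAHFD. Every CDAHFD-fed female library lay below every ND-fed one of its genotype. In WT males the sum was 130117, 113289, 125527 and 128694 CPM on ND and 101613, 85018, 56478 and 67852 CPM on CDAHFD. Cyp2b-null males had 116958, 115047, 119975 and 105822 CPM on ND and 74455, 73307, 53075 and 82234 CPM on CDAHFD. Male libraries did not overlap between diets either, and the CDAHFD mean was 57.2% of the ND mean in WT females, 60.8% in Cyp2b-null females, 62.5% in WT males and 61.8% in Cyp2b-null males. Of the 6 hepatocyte markers, 5, 5, 6 and 4 fell on CDAHFD in these 4 comparisons, in that order.

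Macrophage and stellate cell markers were higher on CDAHFD. The 6 macrophage markers summed to 366, 445, 270.0 and 289 CPM in ND-fed and 569, 680.2, 732 and 536 CPM in CDAHFD-fed WT females, and to 370.5, 370.3, 249.9 and 368 and 784, 714, 856 and 625 CPM in Cyp2b-null females. The same sums were 168, 152, 239 and 110.04 and 528, 1047, 1113 and 858 CPM in WT males, and 187, 153, 157 and 133 and 882, 730.2, 1297 and 1125 CPM in Cyp2b-null males. Every CDAHFD-fed library was above every ND-fed one of its sex and genotype, with 4, 4, 5 and 5 of the 6 markers called higher. Clec4f was the most abundant macrophage marker in every ND-fed group, Cd5l in CDAHFD-fed females and Gpnmb in CDAHFD-fed males. The 6 stellate cell and fibroblast markers summed to 75.0, 50.03, 103 and 75.7 CPM in ND-fed and 331, 403, 493 and 438 CPM in CDAHFD-fed WT females, and to 73.7, 65.1, 82.8 and 77.3 and 382, 482, 401 and 355 CPM in Cyp2b-null females. In males they summed to 57.1, 56.2, 65.6 and 69.0 and 340.3, 326, 539 and 412 CPM in WT and to 65.8, 48.7, 94.9 and 59.3 and 451, 503, 650.5 and 416 CPM in Cyp2b-null livers. These sums did not overlap between diets, 4, 5, 4 and 5 of the 6 markers were called higher, and the collagen gene Col3a1 was the most abundant in each CDAHFD-fed group.

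The 5 cholangiocyte markers, led by Spp1 in each group, had 2, 3, 2 and 2 called higher, and their CDAHFD mean was 3.50, 4.33, 5.42 and 7.24 times the ND mean. These folds mostly follow Spp1, which held 147 of the 161 CPM in CDAHFD-fed WT females and 184 of the 202 CPM in CDAHFD-fed Cyp2b-null males. The 4 endothelial markers had 2 called lower in each female comparison, 1 lower in WT males and 2 higher in Cyp2b-null males, with CDAHFD means of 71.8%, 63.8%, 85.8% and 115% of ND. Of the 3 neutrophil markers, S100a8 and S100a9 passed the filter and were called higher in all 4 comparisons, and Retnlg had no count in the 4 ND-fed WT males. The 4 lymphocyte markers summed to means of 1.45 to 8.20 CPM that overlapped between diets, with Nkg7 in Cyp2b-null females as the 1 call, higher. Of the 3 intestinal markers, Apoa4, which liver also expresses, led and was called higher in all 4, Fabp2 in both female comparisons, and Vil1 did not pass the filter. Their sums were 6.26, 5.96, 5.85 and 4.79 times ND. What these shifts contribute to the values of the Ugt and Sult genes was not tested. In whole liver, fewer hepatocytes and less of a transcript in each hepatocyte cannot be told apart.

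Genotype and sex labels were held against the targeted and the sex-linked genes. Cyp2b9 had 3076, 1371, 1764 and 3530 counts in ND-fed and 1151, 768, 790 and 683 in CDAHFD-fed WT females, and 4, 8, 5 and 5 and 4, 7, 2 and 4 in the Cyp2b-null females. CDAHFD-fed males had 364, 277, 118 and 268 counts of it in WT and 3, 6, 7 and 2 in Cyp2b-null livers. ND-fed males, with little Cyp2b9 in either genotype, had 33, 89, 97 and 50 counts of Cyp2b10 in WT and 9, 1, 1 and 2 in Cyp2b-null livers. In each of these pairs every WT library was above every Cyp2b-null one, and Xist was high in all females and near 0 in all males.

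Among the libraries, CDAHFD-fed Cyp2b-null female replicate 3 stood apart in the Ugt1 family, with a sum of 164 CPM against 364 to 390.3 CPM in the other 3 of its group. Its TMM factor was 0.989, and those of the other 3 were 1.12, 1.14 and 1.21. Outside the family, its Xist level was 142 CPM, against 451 to 545 CPM in the other 3. The heat maps of the study leave out this library and CDAHFD-fed Cyp2b-null male replicate 4 without a stated reason. Both were kept here.

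Most of the members called for diet were lower on CDAHFD, in both sexes and both genotypes. Of the 28 members tested in WT females, 18 were called lower and none higher, 9 Ugt and 9 Sult genes. Over all genes tested there, 10.2% were called lower and 13.9% higher. In Cyp2b-null females 18 of 28 were lower and none higher, 10 Ugt and 8 Sult genes, against 13.9% lower and 16.9% higher of all genes. DESeq2 called 19 lower and none higher in each genotype of the females, and of all 13226 genes it called 1463 and 1944 lower and 1841 and 2234 higher. In WT males 10 of 23 were lower and 2 higher, against 15.0% lower and 18.0% higher of all genes. Fitted to the WT male groups only, Ugt1a7c and Sult1e1, the 2 higher members, did not pass the filter, and 11 members were lower and 0 higher (1528 and 1978 of all 12627 genes). In Cyp2b-null males 15 of 23 were lower and 2 higher, against 17.1% lower and 20.3% higher of all genes. The Ugt genes made up 9 of the 10 and 13 of the 15 lower calls in males. The median log2 change of the members tested was -0.62 in WT females, -0.65 in Cyp2b-null females, -0.31 in WT males and -0.71 in Cyp2b-null males, where the medians of all genes were -0.002, 0.03, -0.02 and -0.01. For the Ugt genes alone the medians were -0.50, -0.59, -0.52 and -0.84, and for the Sult genes alone -1.16, -1.12, -0.08 and -0.13. The Sult medians cover 13 genes in females and 7 in males, so they do not compare the sexes. The 6 Sult genes that passed the filter in females only were all called lower there in both genotypes.

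Some members not called for diet in these fits were called in others. Sult1e1 was higher in WT females with only the groups compared or without CDAHFD-fed WT female replicate 3 (2.27 to 2.65, adjusted p 0.0254 to 0.0361), and with no low-count filter (2.22, adjusted p = 9.18e-18). Its WT female libraries overlapped between the diets, so the small adjusted p without a filter does not mean that the mice were apart. In WT females Sult1b1 was lower with no low-count filter, with the replicate block, with DESeq2 or without ND-fed WT female replicate 1, CDAHFD-fed WT female replicate 3, ND-fed Cyp2b-null female replicate 3 or CDAHFD-fed Cyp2b-null female replicate 4 (-0.81 to -0.62, adjusted p 0.00756 to 0.0487), Ugt3a1 with no low-count filter, with only the groups compared or without CDAHFD-fed Cyp2b-null female replicate 3 (-0.54 to -0.50, adjusted p 0.0156 to 0.0481), Ugt1a6a without CDAHFD-fed Cyp2b-null female replicate 3 (-0.39, adjusted p = 0.0465) and Sult1c2 without ND-fed WT female replicate 2 (-0.78, adjusted p = 0.0404). In Cyp2b-null females Ugt1a6a was lower with no low-count filter or without ND-fed Cyp2b-null female replicate 3 or CDAHFD-fed Cyp2b-null female replicate 1 (-0.65 to -0.57, adjusted p 0.0127 to 0.0474) and Ugt1a6b with no low-count filter, with DESeq2 or without CDAHFD-fed Cyp2b-null female replicate 4 (-0.58 to -0.49, adjusted p 0.0215 to 0.0486). WT males had lower Ugt1a1 with the replicate block, with DESeq2 or without CDAHFD-fed WT male replicate 4 or CDAHFD-fed Cyp2b-null male replicate 2 (-0.38 to -0.27, adjusted p 0.0135 to 0.0425), Sult1a1 with only the groups compared, with DESeq2 or without ND-fed Cyp2b-null male replicates 2 or 3 or CDAHFD-fed Cyp2b-null male replicates 2 or 4 (-0.36 to -0.35, adjusted p 0.0273 to 0.049) and Ugt3a2 without CDAHFD-fed WT male replicate 1 (-0.43, adjusted p = 0.0242).

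These numbers are relative to the TMM scale. Scaling by library size only moved the median diet change of all genes up by 0.32 in WT females, 0.25 in Cyp2b-null females, 0.39 in WT males and 0.37 in Cyp2b-null males. On that scale the members called lower and higher were 11 and 2 in WT females (491 and 3910 of all 13226 genes), 11 and 1 in Cyp2b-null females (666 and 4019), 8 and 3 in WT males (580 and 5111 of 13460) and 10 and 2 in Cyp2b-null males (818 and 5159). Ugt2b35 (0.66, adjusted p = 0.00823) and Sult1e1 (2.59, adjusted p = 0.0321) in WT females, Sult5a1 in Cyp2b-null females (0.86, adjusted p = 0.0269) and Sult1d1 in WT males (0.63, adjusted p = 0.00088) were the added higher calls. Without CDAHFD-fed Cyp2b-null female replicate 3, 16 members were called in Cyp2b-null females and 20 in WT females, and without CDAHFD-fed Cyp2b-null male replicate 4, 17 were called in Cyp2b-null males and 13 in WT males.

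Summed over the members of each family, the diet groups can be read library by library. The Ugt1 sum was 624, 715, 625 and 647 CPM in ND-fed and 425, 281, 344 and 258 CPM in CDAHFD-fed WT females. For Ugt2 the libraries held 2683, 2492, 2239 and 2107 CPM on ND and 1913, 1519, 1706 and 1457 CPM on CDAHFD, and for all Sult genes 1765, 2182, 2769 and 2479 and 969, 941, 686 and 759 CPM. None of these 3 sums overlapped between the diets in WT females. The CDAHFD mean was 50.1% of the ND mean for Ugt1, 69.3% for Ugt2, 72.0% for Ugt3 and 36.5% for Sult. In Cyp2b-null females the means were 45.1%, 68.9%, 71.0% and 44.1% of ND. Without replicate 3 of the CDAHFD-fed group these became 52.5%, 70.0%, 76.0% and 44.6%. WT males kept 74.1% of the Ugt1, 54.9% of the Ugt2, 77.0% of the Ugt3 and 52.7% of the Sult sum, and Cyp2b-null males 62.4%, 46.1%, 63.9% and 46.9%. The hepatocyte marker sum stood at 57.2%, 60.8%, 62.5% and 61.8% in the same 4 comparisons. With library size only, the WT male Ugt3 sum stood at 100.03% and the Ugt1 sum at 97.6% of ND, and the Ugt3 libraries of WT males overlapped between the diets on the TMM scale as well.

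**Figure D1:**
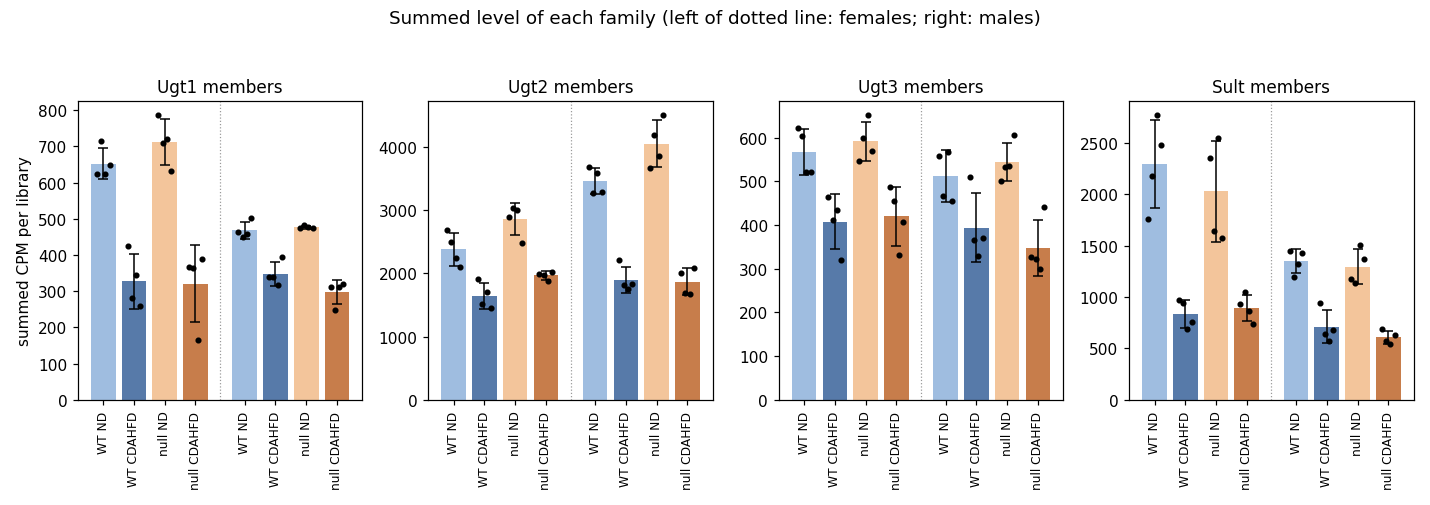
Summed CPM of the Ugt1, Ugt2, Ugt3 and Sult genes in the 8 groups, with bars for the mean of 4 libraries, error bars for the SD and a dot for each library. CDAHFD means lay below ND means in each family, sex and genotype on the TMM scale, for Sult in WT females at 36.5% of the ND mean. On the scale of library size only, the Ugt3 sum of WT males stood at 100.03% of ND.

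The Ugt1a genes lie in 1 cluster on chromosome 1, from chr1:88055411-88220002 for Ugt1a10 to chr1:88211959-88220002 for Ugt1a1, and each has a first exon of its own spliced to the same 3′ exons. Between 39.4% and 49.7% of the exon bases of each Ugt1a gene belong to it alone, so reads from the shared exons could be given to several of them or to none. How the counting treated such reads is not stated. Ugt1a1, the enzyme that conjugates bilirubin, gave 59.1% of the Ugt1 sum in ND-fed and 70.4% in CDAHFD-fed WT females. Ugt1a1 measured 393, 457, 345 and 349 CPM on ND and 314, 195, 232 and 180.4 CPM on CDAHFD in WT females. In Cyp2b-null females it measured 468, 454, 452 and 409 CPM on ND and 252, 253, 108 and 261 CPM on CDAHFD. The diet groups did not overlap, with log2 changes of -0.72 (SE 0.22, adjusted p = 0.0187) in WT and -0.998 (SE 0.22, adjusted p = 0.00161) in Cyp2b-null females, and replicate 3 was the lowest of the CDAHFD-fed Cyp2b-null libraries. In WT males Ugt1a1 measured 284, 269, 281 and 286 CPM on ND and 217, 211, 216 and 273 CPM on CDAHFD, groups that overlapped in CDAHFD-fed replicate 4 and were not called (log2 change -0.28, SE 0.11, adjusted p = 0.052). In Cyp2b-null males it measured 293, 266, 282 and 280.0 CPM on ND and 212, 166, 202 and 209.7 CPM on CDAHFD, with every CDAHFD-fed library lower (log2 change -0.50, SE 0.11, adjusted p = 0.00101).

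Ugt1a5 fell furthest of the Ugt1a genes. It measured 92.6, 92.8, 161 and 177 CPM on ND and 14.4, 6.36, 13.3 and 12.8 CPM on CDAHFD in WT females, and 163, 85.0, 137 and 88.5 CPM on ND and 17.1, 12.7, 4.81 and 15.3 CPM on CDAHFD in Cyp2b-null females. The CDAHFD-fed libraries all lay below 18 CPM and the ND-fed ones above 84 CPM, with log2 changes of -3.44 (SE 0.33, adjusted p = 2.2e-07) and -3.21 (SE 0.32, adjusted p = 3.99e-07). Male WT livers had 37.3, 55.2, 40.6 and 47.2 CPM on ND and 12.5, 10.4, 7.23 and 8.85 CPM on CDAHFD, and male Cyp2b-null livers 40.4, 50.3, 64.4 and 43.1 CPM on ND and 9.32, 9.04, 9.22 and 11.05 CPM on CDAHFD. Diets were again apart, with changes of -2.22 (SE 0.18, adjusted p = 1.38e-08) and -2.36 (SE 0.18, adjusted p = 3.78e-09). Ugt1a9 measured 76.0, 102, 41.6 and 52.3 CPM on ND and 37.1, 27.5, 39.4 and 21.5 CPM on CDAHFD in WT females, and 77.3, 105, 69.0 and 66.0 CPM on ND and 38.9, 43.4, 24.9 and 61.6 CPM on CDAHFD in Cyp2b-null females. Its CDAHFD-fed libraries were the lower ones in both genotypes, with changes of -1.09 (SE 0.28, adjusted p = 0.00577) and -0.87 (SE 0.27, adjusted p = 0.0175). In Cyp2b-null males Ugt1a9 measured 56.4, 42.5, 28.8 and 38.0 CPM on ND and 23.0, 16.6, 30.6 and 19.0 CPM on CDAHFD, with 1 CDAHFD-fed library inside the ND range (log2 change -0.89, SE 0.25, adjusted p = 0.00821). In WT males it measured 27.2, 29.2, 41.5 and 59.4 CPM on ND and 21.8, 35.9, 27.4 and 40.9 CPM on CDAHFD, overlapping groups that were not called.

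Ugt1a6a and Ugt1a6b, whose products conjugate small planar phenols, were called for diet in males only in these fits. Ugt1a6a measured 57.5, 47.1, 50.3 and 62.7 CPM on ND and 36.9, 38.9, 28.8 and 33.5 CPM on CDAHFD in WT males, and 44.8, 63.9, 54.1 and 57.5 CPM on ND and 29.2, 29.3, 30.6 and 39.5 CPM on CDAHFD in Cyp2b-null males. Diet groups did not overlap, with log2 changes of -0.66 (SE 0.14, adjusted p = 0.00116) and -0.77 (SE 0.14, adjusted p = 0.000182). In females its means were 34.1 ± 1.58 and 25.7 ± 5.27 CPM (SD, n = 4) on ND and CDAHFD in WT, and 33.7 ± 4.88 and 23.2 ± 7.52 CPM in Cyp2b-null livers, with no call. Ugt1a6b measured 38.8, 59.1, 46.5 and 54.2 CPM on ND and 35.7, 24.3, 33.7 and 38.5 CPM on CDAHFD in Cyp2b-null males, groups without overlap (log2 change -0.58, SE 0.16, adjusted p = 0.00596), and it was not called for diet in the other 3 comparisons of these fits. Ugt1a7c was the member of the cluster that went the other way. It had 0, 1, 0 and 3 counts in ND-fed and 5, 13, 20 and 15 counts in CDAHFD-fed WT males, and 2, 0, 4 and 1 and 11, 26, 50 and 11 counts in Cyp2b-null males. All 8 CDAHFD-fed male libraries had more than their ND-fed counterparts, at means of 2.16 ± 0.825 and 2.72 ± 1.03 CPM (SD, n = 4), with log2 changes of 3.50 (SE 0.74, adjusted p = 0.000905) and 3.09 (SE 0.64, adjusted p = 0.000654). Without ND-fed WT male replicate 4 the first was 4.92, and without ND-fed Cyp2b-null male replicate 3 the second was 3.93.

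Several of the Ugt1a calls hung on the scaling or on 1 library. With library size only, calls were lost for Ugt1a1 in WT females (log2 change -0.40, adjusted p = 0.192) and Cyp2b-null males (-0.14, adjusted p = 0.391), for Ugt1a9 in Cyp2b-null females (-0.60, adjusted p = 0.104) and males (-0.50, adjusted p = 0.149), for Ugt1a6a in WT males (-0.27, adjusted p = 0.121) and for Ugt1a6b in Cyp2b-null males (-0.22, adjusted p = 0.25). The Ugt1a1 call in WT females was lost without ND-fed WT female replicate 2 or CDAHFD-fed WT female replicates 2 or 4 (log2 changes -0.65 to -0.62, adjusted p 0.0575 to 0.0697), and the Ugt1a9 call in Cyp2b-null females without ND-fed Cyp2b-null female replicate 2 or CDAHFD-fed Cyp2b-null female replicate 3 (log2 changes -0.71 to -0.68, adjusted p 0.0555 to 0.0757). Without CDAHFD-fed Cyp2b-null female replicate 3, the changes in Cyp2b-null females were -0.77, adjusted p = 0.00109 for Ugt1a1 and -2.94, adjusted p = 8.32e-07 for Ugt1a5.

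The Ugt2 genes of chromosome 5, whose products conjugate steroids, bile acids and many drugs, included Ugt2b5, the member with the most counts per base of all its exons in males. Ugt2a3 measured 314, 319, 323 and 305 CPM on ND and 131, 104, 142 and 78.7 CPM on CDAHFD in WT females, and 378, 364, 408 and 318 CPM on ND and 163, 148, 138 and 105 CPM on CDAHFD in Cyp2b-null females. In WT males it measured 369.8, 356, 350.5 and 354 CPM on ND and 180.2, 130.5, 114 and 119.7 CPM on CDAHFD, and in Cyp2b-null males 364, 339.8, 391 and 371 CPM on ND and 132, 111, 100.4 and 140.0 CPM on CDAHFD. The diets were apart in all 4 comparisons, with every ND-fed library above 300 CPM and every CDAHFD-fed one below 181 CPM. The log2 changes were -1.45 (SE 0.17, adjusted p = 2.15e-06) in WT females, -1.38 (SE 0.16, adjusted p = 3.35e-06) in Cyp2b-null females, -1.39 (SE 0.14, adjusted p = 1.3e-07) in WT males and -1.60 (SE 0.14, adjusted p = 1.72e-08) in Cyp2b-null males.

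Ugt2b5 and Ugt2b1 were lower on CDAHFD in all 4 comparisons. Ugt2b5 measured 704, 685, 544 and 489 CPM on ND and 480.1, 368, 436 and 396 CPM on CDAHFD in WT females, and 693, 907, 763 and 714 CPM on ND and 494, 504, 630.5 and 545 CPM on CDAHFD in Cyp2b-null females. Males had 1083, 784, 999 and 919 CPM on ND and 484, 404, 429 and 477 CPM on CDAHFD in WT and 1051, 1106, 1068 and 1297 CPM on ND and 565, 416, 392 and 524 CPM on CDAHFD in Cyp2b-null livers. No diet groups overlapped, with log2 changes of -0.50 (SE 0.14, adjusted p = 0.0131) and -0.48 (SE 0.14, adjusted p = 0.0154) in WT and Cyp2b-null females and -1.07 (SE 0.14, adjusted p = 4.43e-06) and -1.25 (SE 0.14, adjusted p = 5.19e-07) in WT and Cyp2b-null males. Ugt2b1 measured 258, 318, 219 and 238 CPM on ND and 230.1, 175, 186 and 117 CPM on CDAHFD in WT females, and 331, 329.5, 361 and 243 CPM on ND and 222, 192, 159 and 211 CPM on CDAHFD in Cyp2b-null females. The WT groups overlapped in CDAHFD-fed replicate 1 and the Cyp2b-null groups did not, with changes of -0.52 (SE 0.18, adjusted p = 0.041) and -0.66 (SE 0.18, adjusted p = 0.00881). In WT males Ugt2b1 measured 691, 637, 706 and 523 CPM on ND and 359, 189, 182 and 195 CPM on CDAHFD, and in Cyp2b-null males 625, 839, 755 and 877 CPM on ND and 227, 192, 168 and 259.9 CPM on CDAHFD. Both were apart, with changes of -1.46 (SE 0.20, adjusted p = 6.11e-06) and -1.87 (SE 0.20, adjusted p = 2.41e-07).

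Ugt2b38 and Ugt2b5 have 24.2% and 24.7% of their 100-base windows in other genes as well, and Ugt2b38 stood far below Ugt2b5 in level per length. In WT males it measured 22.2, 31.4, 33.0 and 18.6 CPM on ND and 8.14, 7.69, 9.56 and 7.26 CPM on CDAHFD, and in Cyp2b-null males 32.7, 52.5, 29.9 and 36.5 CPM on ND and 7.55, 10.7, 9.88 and 6.34 CPM on CDAHFD. The male diet groups did not overlap, with log2 changes of -1.68 (SE 0.22, adjusted p = 4.89e-06) and -2.09 (SE 0.21, adjusted p = 1.46e-07). Among Cyp2b-null females it measured 7.85, 9.11, 10.7 and 9.02 CPM on ND and 6.52, 4.91, 5.70 and 5.90 CPM on CDAHFD, also apart (log2 change -0.64, SE 0.24, adjusted p = 0.0444), and in WT females 11.7, 7.26, 5.71 and 7.74 CPM on ND and 6.77, 3.53, 7.16 and 6.08 CPM on CDAHFD, overlapping and not called. Ugt2b34 measured 586, 539, 525 and 471 CPM on ND and 450.2, 331, 365 and 379.7 CPM on CDAHFD in WT females, and 712, 608, 624 and 559 CPM on ND and 421, 439.9, 289 and 482 CPM on CDAHFD in Cyp2b-null females. In WT males it measured 605, 645, 603 and 669 CPM on ND and 504, 509, 457 and 456 CPM on CDAHFD, and in Cyp2b-null males 676, 799, 689.8 and 752 CPM on ND and 429, 397, 465 and 482 CPM on CDAHFD. The CDAHFD-fed libraries were the lower ones in each pair, with log2 changes of -0.45 (SE 0.15, adjusted p = 0.0335), -0.59 (SE 0.15, adjusted p = 0.00566), -0.39 (SE 0.11, adjusted p = 0.00796) and -0.71 (SE 0.11, adjusted p = 2.06e-05) in that order. The fall in WT males was not there with library size only (log2 change 0.0012, a value with the opposite sign).

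Ugt2b36 measured 647, 463, 509.9 and 478 CPM on ND and 422, 395, 389.6 and 322 CPM on CDAHFD in WT females, and 578, 636, 669.9 and 496 CPM on ND and 483, 500.3, 516 and 462 CPM on CDAHFD in Cyp2b-null females. The WT groups were apart (log2 change -0.43, SE 0.13, adjusted p = 0.0225), and the Cyp2b-null groups overlapped and were not called (-0.25, SE 0.13, adjusted p = 0.161). In WT males it measured 642, 557, 661 and 574 CPM on ND and 409, 343, 336 and 364 CPM on CDAHFD, and in Cyp2b-null males 663, 714, 657 and 804 CPM on ND and 397, 333, 309 and 354 CPM on CDAHFD. No male diet groups overlapped, with changes of -0.74 (SE 0.12, adjusted p = 4.58e-05) and -1.02 (SE 0.12, adjusted p = 7.2e-07). Ugt2b35 and the low Ugt2b37, with group means of 1.88 to 4.67 CPM, were called in none of the 4 diet comparisons. Ugt2b35 measured 160.3, 152, 111 and 112 CPM on ND and 191, 141, 179 and 153 CPM on CDAHFD in WT females, and 272, 264, 241 and 232 CPM on ND and 257, 237, 218 and 215 CPM on CDAHFD in WT males, with the diets overlapping in both.

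Of the Ugt2b calls in females, those of WT females were lost with library size only for Ugt2b1 (log2 change -0.20, adjusted p = 0.438), Ugt2b34 (-0.13, adjusted p = 0.58), Ugt2b36 (-0.12, adjusted p = 0.55) and Ugt2b5 (-0.18, adjusted p = 0.337). Those of Cyp2b-null females were lost for Ugt2b1 (-0.40, adjusted p = 0.102), Ugt2b34 (-0.32, adjusted p = 0.151), Ugt2b38 (-0.39, adjusted p = 0.232) and Ugt2b5 (-0.23, adjusted p = 0.216). Single libraries mattered too. The call in WT females was lost for Ugt2b1 without ND-fed WT female replicates 1, 2 or 4, CDAHFD-fed WT female replicates 2, 3 or 4 or CDAHFD-fed Cyp2b-null female replicate 2 (log2 changes -0.56 to -0.37, adjusted p 0.0508 to 0.153), and with only the groups compared (-0.51, adjusted p = 0.0582). For Ugt2b34 it was lost without ND-fed WT female replicates 1, 2 or 3 or CDAHFD-fed WT female replicates 2, 3 or 4 (log2 changes -0.46 to -0.39, adjusted p 0.0549 to 0.104), for Ugt2b36 without ND-fed WT female replicate 1 or CDAHFD-fed WT female replicate 4 (log2 changes -0.36 to -0.31, adjusted p 0.0826 to 0.11) and for Ugt2b5 without ND-fed WT female replicate 1 (log2 change -0.42, adjusted p = 0.0516). In Cyp2b-null females the Ugt2b5 call was lost without ND-fed Cyp2b-null female replicate 2 (log2 change -0.39, adjusted p = 0.069). The Ugt2b38 call there was lost without ND-fed WT female replicate 4, CDAHFD-fed WT female replicate 4, ND-fed Cyp2b-null female replicates 2, 3 or 4 or CDAHFD-fed Cyp2b-null female replicates 2, 3 or 4 (log2 changes -0.66 to -0.58, adjusted p 0.0501 to 0.105) and with no low-count filter (-0.70, adjusted p = 0.0521).

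Ugt3a1 and Ugt3a2, which transfer sugars other than glucuronic acid, lie side by side on chromosome 15. Ugt3a2 measured 552, 526, 471 and 464 CPM on ND and 411, 370.5, 386 and 288 CPM on CDAHFD in WT females, and 488, 527, 578 and 497 CPM on ND and 433, 407, 307 and 366 CPM on CDAHFD in Cyp2b-null females. In Cyp2b-null males it measured 423, 445, 450.4 and 501 CPM on ND and 288, 290.0, 264 and 393 CPM on CDAHFD. These 3 pairs did not overlap, with log2 changes of -0.44 (SE 0.14, adjusted p = 0.0229), -0.44 (SE 0.14, adjusted p = 0.02) and -0.56 (SE 0.14, adjusted p = 0.00428). WT males had 473, 388, 474 and 381 CPM on ND and 440.2, 319.9, 289 and 333 CPM on CDAHFD, overlapping in CDAHFD-fed replicate 1 and not called. Ugt3a1 measured 58.0, 72.3, 72.4 and 71.7 CPM on ND and 54.2, 47.3, 24.2 and 40.3 CPM on CDAHFD in Cyp2b-null females, 84.5, 79.3, 94.4 and 74.7 CPM on ND and 69.8, 46.3, 40.5 and 38.4 CPM on CDAHFD in WT males, and 78.6, 87.3, 85.6 and 106 CPM on ND and 39.0, 31.7, 35.3 and 48.7 CPM on CDAHFD in Cyp2b-null males. Each of these was apart and called lower, with log2 changes of -0.70 (SE 0.21, adjusted p = 0.0131), -0.77 (SE 0.17, adjusted p = 0.00124) and -1.21 (SE 0.17, adjusted p = 9.03e-06). WT females had 70.4, 76.4, 51.1 and 56.3 CPM on ND and 53.5, 41.2, 49.3 and 32.1 CPM on CDAHFD, overlapping and not called. With library size only the Ugt3a2 calls in WT females (-0.12, adjusted p = 0.546), Cyp2b-null females (-0.18, adjusted p = 0.366) and Cyp2b-null males (-0.20, adjusted p = 0.186) were lost, as was that of Ugt3a1 in Cyp2b-null females (-0.43, adjusted p = 0.125). The Ugt3a2 call was also lost in WT females without ND-fed WT female replicates 1 or 2 or CDAHFD-fed WT female replicate 4 (log2 changes -0.42 to -0.35, adjusted p 0.0503 to 0.0898) and in Cyp2b-null females without ND-fed Cyp2b-null female replicate 3 (log2 change -0.39, adjusted p = 0.0616).

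The Sult1 genes took different courses on CDAHFD. Sult1a1, which sulfates phenols, measured 487, 484, 739 and 619.6 CPM on ND and 368, 404, 250.4 and 455 CPM on CDAHFD in WT females. The diet groups were apart (log2 change -0.63, SE 0.20, adjusted p = 0.0238), a call lost with library size only (-0.30, adjusted p = 0.243) and without ND-fed WT female replicates 3 or 4 or CDAHFD-fed WT female replicate 3 (log2 changes -0.60 to -0.49, adjusted p 0.0564 to 0.0904). In Cyp2b-null females it measured 564, 384, 542 and 339.9 CPM on ND and 315, 399, 478 and 369.8 CPM on CDAHFD, in WT males 279, 292, 273 and 296 CPM on ND and 219.5, 219.8, 212 and 234 CPM on CDAHFD, and in Cyp2b-null males 244, 212, 325 and 236 CPM on ND and 260.0, 267, 227 and 169 CPM on CDAHFD. None of these 3 was called in these fits, although the WT male libraries did not overlap between the diets. Sult1d1, which acts on catecholamines, measured 279, 245, 327 and 288 CPM on ND and 162, 152, 97.6 and 118 CPM on CDAHFD in WT females, and 303, 259, 367 and 198 CPM on ND and 190.4, 184, 95.8 and 137 CPM on CDAHFD in Cyp2b-null females. Every CDAHFD-fed female library was below every ND-fed one of its genotype, with log2 changes of -1.08 (SE 0.21, adjusted p = 0.000721) and -0.87 (SE 0.21, adjusted p = 0.00403). Males had lower levels than females on ND and overlapping diets, with 104, 101, 111 and 133 CPM on ND and 159.9, 133, 117 and 121 CPM on CDAHFD in WT livers and 95.4, 126, 152 and 115 CPM on ND and 114, 104, 117 and 111 CPM on CDAHFD in Cyp2b-null livers, and no call for diet. On CDAHFD the libraries of WT males and WT females overlapped.

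Sult1b1, a thyroid hormone sulfotransferase, measured 18.1, 21.8, 35.8 and 22.8 CPM on ND and 13.7, 15.5, 16.1 and 14.9 CPM on CDAHFD in Cyp2b-null males, with all CDAHFD-fed libraries lower (log2 change -0.69, SE 0.24, adjusted p = 0.0276). This call was lost with library size only (-0.31, adjusted p = 0.302) and without ND-fed Cyp2b-null male replicate 3 or CDAHFD-fed Cyp2b-null male replicate 1 (log2 changes -0.65 to -0.46, adjusted p 0.0633 to 0.147). The other 3 diet comparisons of Sult1b1 were not called in these fits. Sult1e1, the estrogen sulfotransferase, rose in males from almost nothing. It had 0, 1, 0 and 0 counts in ND-fed and 96, 34, 14 and 1 counts in CDAHFD-fed WT males. In Cyp2b-null males it had no count on ND and 31, 226, 81 and 39 counts on CDAHFD, or 4.98, 23.5, 6.73 and 7.98 CPM. Each CDAHFD-fed male library had at least as many counts as any ND-fed one, though WT replicate 4 had 1 count. From the counts pooled over each group, Sult1e1 on CDAHFD was 139-fold higher (exact 95% counting interval 24.6 to 5543) in WT males (adjusted p = 0.00161) and, from the CDAHFD mean, at least 81.6-fold higher in Cyp2b-null males (adjusted p = 0.000246), the latter against a floor of 3 counts over the group. Replicate 1 held 96 of the 145 WT counts on CDAHFD. The fitted WT change was more than 1.5-fold smaller without it and larger without ND-fed replicate 2, and the Cyp2b-null change smaller without CDAHFD-fed replicate 2. The interval covers counting error only. Females showed it on both diets with wide spread, 0.595, 6.87, 8.73 and 5.85 CPM on ND and 14.6, 35.8, 1.19 and 44.6 CPM on CDAHFD in WT and 18.7, 0, 7.28 and 4.01 CPM on ND and 7.02, 23.1, 11.9 and 0.481 CPM on CDAHFD in Cyp2b-null livers, overlapping and not called in the fit of all female groups. Sult1c2 was called in no diet comparison of these fits, with group means between 4.95 CPM in ND-fed Cyp2b-null males and 11.6 CPM in ND-fed WT females.

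Of the Sult2a genes of chromosome 7, hydroxysteroid and bile acid sulfotransferases, the 6 tested were lower in CDAHFD-fed females of both genotypes. Sult2a1 measured 189.9, 397, 567 and 513 CPM on ND and 85.8, 10.1, 0.597 and 10.7 CPM on CDAHFD in WT females. In Cyp2b-null females it measured 496, 159.6, 419.7 and 242 CPM on ND and 6.52, 33.2, 8.19 and 10.5 CPM on CDAHFD. The diets did not overlap, although CDAHFD-fed WT replicate 1 kept far more than the other 3, and the log2 changes were -3.95 (SE 0.75, adjusted p = 0.000495) and -4.43 (SE 0.77, adjusted p = 0.000202). Without that library the WT change was -5.82, and without CDAHFD-fed Cyp2b-null female replicate 2 the other was -5.23. Sult2a2, next to Sult2a1 and with 34.6% of its 100-base windows found in other genes, measured 292, 283, 463 and 389.7 CPM on ND and 128, 33.9, 3.78 and 25.1 CPM on CDAHFD in WT females. In Cyp2b-null females it measured 406, 183, 364 and 201 CPM on ND and 29.6, 71.2, 20.5 and 36.8 CPM on CDAHFD. Again no CDAHFD-fed library reached the ND range, with changes of -2.89 (SE 0.58, adjusted p = 0.000846) and -2.82 (SE 0.58, adjusted p = 0.000922), the first of which was -4.07 without CDAHFD-fed WT female replicate 1. In ND-fed males neither gene had a count, and in CDAHFD-fed WT males Sult2a1 had 0, 3, 2 and 2 and Sult2a2 0, 2, 3 and 8 counts, where Sult2a2 was called higher on CDAHFD with no low-count filter (adjusted p = 0.0162). The CDAHFD-fed Cyp2b-null males had 0, 1, 1 and 0 and 0, 5, 1 and 0 counts of these genes.

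The smaller Sult2a transcripts followed the same course in females. Sult2a5 measured 15.7, 25.2, 32.6 and 27.2 CPM on ND and 8.73, 0.942, 0.199 and 0.623 CPM on CDAHFD in WT and 29.6, 8.91, 28.0 and 14.7 CPM on ND and 1.25, 3.01, 1.42 and 2.17 CPM on CDAHFD in Cyp2b-null females. Sult2a3 measured 7.14, 11.5, 57.8 and 34.4 CPM on ND and 6.33, 1.18, 0 and 1.09 CPM on CDAHFD in WT and 16.3, 6.73, 9.198 and 8.18 CPM on ND and 0.502, 1.11, 0.891 and 1.20 CPM on CDAHFD in Cyp2b-null females. Sult2a7 measured 14.7, 26.4, 18.5 and 15.3 CPM on ND and 0.655, 1.18, 0.199 and 0.156 CPM on CDAHFD in WT and 9.06, 6.73, 6.90 and 4.51 CPM on ND and 1.51, 0.949, 1.07 and 0.1203 CPM on CDAHFD in Cyp2b-null females. For each of the 3 genes all CDAHFD-fed libraries were below all ND-fed ones. Sult2a5 changed by -3.29 (SE 0.57, adjusted p = 0.000197) in WT and -3.22 (SE 0.58, adjusted p = 0.000254) in Cyp2b-null females. Sult2a3 changed by -3.69 (SE 0.65, adjusted p = 0.000217) and -3.27 (SE 0.75, adjusted p = 0.0024), and Sult2a7 by -5.11 (SE 0.45, adjusted p = 8.31e-08) and -2.97 (SE 0.45, adjusted p = 4.05e-05). Without CDAHFD-fed WT female replicate 1 the WT changes were -5.35 for Sult2a5 and -5.10 for Sult2a3, without ND-fed WT female replicate 3 that of Sult2a3 was -3.10, and without CDAHFD-fed WT female replicate 2 that of Sult2a7 was -5.74. Males had a few counts of Sult2a7, 8, 5, 8 and 4 on ND and 1, 0, 0 and 0 on CDAHFD in WT and 7, 2, 3 and 3 and 0, 0, 2 and 0 in Cyp2b-null livers, which with no low-count filter were called lower on CDAHFD (adjusted p = 0.00255 in WT and adjusted p = 0.0212 in Cyp2b-null males).

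Sult2a8 was the member of the cluster that was abundant in males. It measured 382, 540.1, 442 and 437 CPM on ND and 162, 262, 291 and 76.5 CPM on CDAHFD in WT and 427, 557, 689 and 469 CPM on ND and 329, 292, 196 and 150.0 CPM on CDAHFD in Cyp2b-null females. In males it measured 1012, 774, 903 and 960.3 CPM on ND and 496, 243, 219 and 295 CPM on CDAHFD in WT and 800.3, 772, 982 and 983 CPM on ND and 276, 148, 166 and 311 CPM on CDAHFD in Cyp2b-null livers. All 4 pairs of diet groups were apart, with changes of -1.16 (SE 0.30, adjusted p = 0.00665), -1.12 (SE 0.30, adjusted p = 0.00729), -1.54 (SE 0.24, adjusted p = 3.67e-05) and -1.97 (SE 0.24, adjusted p = 1.58e-06).

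Sult3a1, an amine sulfotransferase on chromosome 10, was nearly lost in CDAHFD-fed females. It measured 53.0, 102, 50.7 and 94.3 CPM in ND-fed WT females, and the CDAHFD-fed libraries had 0, 1, 1 and 1 counts. In Cyp2b-null females it measured 38.9, 43.0, 51.0 and 59.8 CPM on ND, and the CDAHFD-fed libraries had 0, 0, 0 and 1 counts. No CDAHFD-fed female library had more than 1 count. From the counts pooled over each group, Sult3a1 on CDAHFD was 507-fold lower (exact 95% counting interval 173 to 2462) in WT (adjusted p = 5.62e-12) and 1196-fold lower (exact 95% counting interval 214 to 47292) in Cyp2b-null females (adjusted p = 1.47e-11). In males it had 2 counts over the 4 CDAHFD-fed WT libraries and none in the other 12. Sult5a1 was not called for diet in any group, with means between 6.26 CPM in CDAHFD-fed WT males and 12.8 CPM in CDAHFD-fed Cyp2b-null females.

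**Figure D2:**
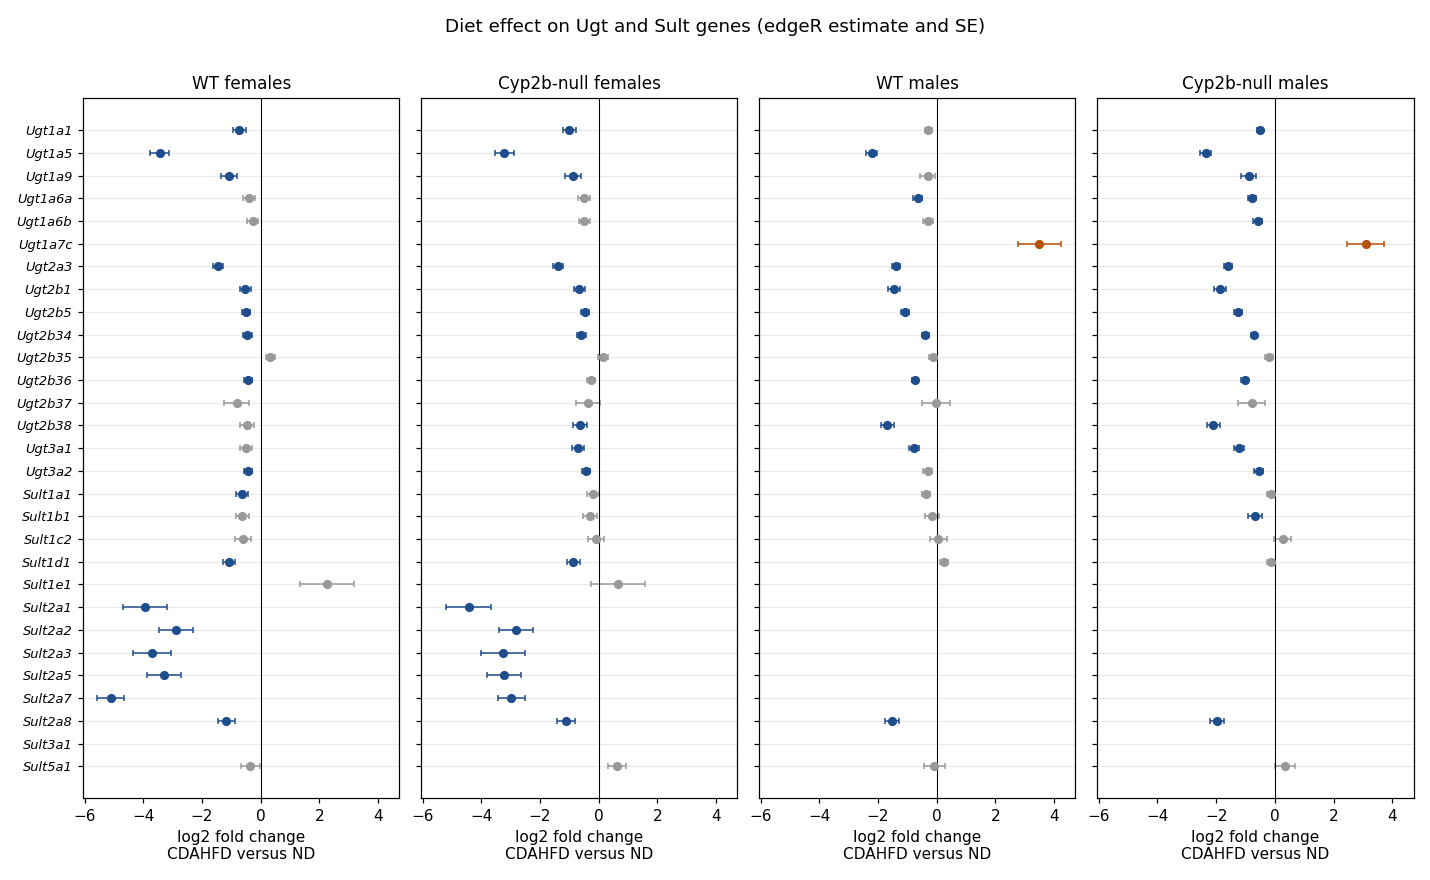
Log2 change on CDAHFD against ND for the members tested in each sex and genotype, with the SE as error bars and called members in color, blue for lower and orange for higher. Members with a group at or under 3 counts (Sult3a1 in females, Sult1e1 in males) are not drawn. Ugt1a5, Ugt2a3, Ugt2b1, Ugt2b5, Ugt2b34 and Sult2a8, 6 members, were lower in all 4 comparisons, where Ugt2b34 in WT males stood at 0.0012 with library size only. On that scale Ugt2b1, Ugt2b5 and Ugt2b34 were not called in females of either genotype.

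Between the genotypes these edgeR fits called none of the members, and DESeq2 called 1. On ND, edgeR called 0 members between Cyp2b-null and WT females, where 0.0756% of all genes were called, and 4 members, Ugt2b5, Sult2a3, Sult2a7 and Sult3a1, had an unadjusted p under 0.05 (5.75% of all genes). DESeq2 called 1 member, Sult2a7 (-1.46, adjusted p = 0.00465, beside 0.174% of all genes). Sult2a7 was lower in each ND-fed Cyp2b-null female than in any ND-fed WT female, with a log2 difference of -1.47 (SE 0.32, adjusted p = 0.156) in edgeR. It was called without CDAHFD-fed Cyp2b-null female replicate 4 (log2 difference -1.47, adjusted p = 0.0445) and with only the groups compared (-1.47, adjusted p = 0.047). Sult2a3, with a difference of -1.47 (SE 0.54, adjusted p = 0.771), and Sult2a7 were called in a fit with no low-count filter (-1.44, adjusted p = 5.71e-07 and -1.44, adjusted p = 5.07e-05). All genes gave 50 higher and 72 lower of 25490 in that fit, and the Sult2a3 libraries overlapped between the genotypes. On CDAHFD, edgeR and DESeq2 called 0 members in females (0.0227% and 0.0378% of all genes). There 3 members, Ugt2b36, Ugt2b5 and Sult5a1, had an unadjusted p under 0.05 (5.83% of all genes). With no low-count filter Sult1e1 and Sult2a1 were called lower in Cyp2b-null females (-1.19, adjusted p = 3.55e-05 and -0.84, adjusted p = 0.00317). The libraries of both genes overlapped between the genotypes, so these small adjusted p do not mean that the mice were apart. All genes gave 23 higher and 46 lower of 25490 in that fit. Ugt2b5 was 0.37 (SE 0.14, adjusted p = 0.826) on the log2 scale and higher in all 4 Cyp2b-null libraries.

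In males, edgeR and DESeq2 called 0 members for genotype on either diet. Of all genes, 0.0371% (edgeR) and 0.453% (DESeq2) were called on ND, and 0.0297% and 0.0297% on CDAHFD. At an unadjusted p under 0.05 there was 1 member on ND, Ugt2b38 (8.26% of all genes), and 1 on CDAHFD, Sult1b1 (3.62% of all genes). The log2 differences were 0.51 (SE 0.20, adjusted p = 0.466) for Ugt2b38 and -0.62 (SE 0.24, adjusted p = 0.9999) for Sult1b1, with Sult1b1 lower in each Cyp2b-null library. The test of whether the diet effect differed between the genotypes also called 0 members with both tools in both sexes. All genes gave 0% by edgeR, 0.0151% by DESeq2 and 6.28% at an unadjusted p under 0.05 in females, where Sult2a7 and Sult5a1 were the 2 members below it. In males the shares were 0.00743%, 0.0594% and 6.07%, with Ugt2b34 the 1 member below it. With no low-count filter, Sult1e1 was called in females (-1.62, adjusted p = 0.00322), where all genes gave 26 higher and 20 lower of 25490. These tests do not show that the genotypes were alike: the estimates for members with counts above the floor ran from -1.60 (Sult1e1) to 2.13 (Sult2a7) in females.

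More members were called between the sexes than between the genotypes. The sexes come as separate count tables, so sex and anything else that differs between the tables cannot be told apart. In the fit over both sexes, 12 of 29 members were higher and 7 lower in ND-fed WT females than in ND-fed WT males, against 9.45% higher and 8.35% lower of all genes. On CDAHFD 6 were higher and 2 lower, against 5.12% and 5.91% of all genes. The Sult genes were higher in females in 10 of the 12 cases and the Ugt genes lower in 6 of the 7. Of these 10 Sult genes, 6 passed the filter in females and not in males, so their direction says little. The median log2 difference on ND was -0.23 for the 16 Ugt genes, beside 0.04 for all genes. With library size only, 13 members were higher and 6 lower on ND (1669 and 683 of all 14020 genes) and 6 higher and 0 lower on CDAHFD (749 and 483).

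Some sex differences on ND were presence against absence. Compared with a floor of 3 counts over the 4 ND-fed WT male libraries, which held no count of these genes, WT females had at least 3247-fold more Sult2a1, at least 2780.5-fold more Sult2a2, at least 585-fold more Sult3a1, at least 216-fold more Sult2a3 and at least 196-fold more Sult2a5. From pooled counts Sult1e1 was 115-fold higher (exact 95% counting interval 20.1 to 4603) (adjusted p = 0.0371), a call lost without ND-fed WT female replicates 2, 3 or 4 or ND-fed WT male replicates 1, 2, 3 or 4 (adjusted p 0.0606 to 0.0887). Sult2a7 (log2 difference 4.09, SE 0.40, adjusted p = 2.18e-09), Ugt1a5 (1.54, SE 0.25, adjusted p = 4.47e-05), Sult1d1 (1.35, SE 0.19, adjusted p = 3.37e-06) and Sult1a1 (1.03, SE 0.18, adjusted p = 0.000119) were higher in every ND-fed WT female library than in any ND-fed WT male library. Sult1c2, with 10.5, 6.11, 17.5 and 12.2 CPM in ND-fed WT females and 6.06, 4.79, 4.38 and 7.42 CPM in ND-fed WT males, overlapped (1.06, SE 0.29, adjusted p = 0.00984), and its call was lost without ND-fed WT female replicate 3 (log2 change 0.83, adjusted p = 0.0653). The Ugt1a9 libraries overlapped too (0.79, SE 0.28, adjusted p = 0.046), and the call was lost with only the groups compared (0.78, adjusted p = 0.0805), with a filter of 1 CPM in 4 libraries (0.78, adjusted p = 0.0503), with the replicate number as a block (0.48, adjusted p = 0.484), and without any 1 of 14 of the 32 libraries (log2 changes 0.54 to 0.82, adjusted p 0.0502 to 0.2).

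On the male side stood Ugt2b38 (-1.67, SE 0.22, adjusted p = 1.68e-06), Ugt2b1 (-1.31, SE 0.20, adjusted p = 1.41e-05), Sult2a8 (-1.02, SE 0.29, adjusted p = 0.0131), Ugt2b35 (-0.92, SE 0.15, adjusted p = 6.04e-05), Ugt1a6a (-0.67, SE 0.18, adjusted p = 0.00779), Ugt2b5 (-0.64, SE 0.14, adjusted p = 0.00149) and Ugt1a6b (-0.56, SE 0.18, adjusted p = 0.0248), given as female against male log2 differences. None of these 7 overlapped between the sexes on ND. The Ugt1a6b call was lost with library size only (-0.47, adjusted p = 0.0786) and without ND-fed WT female replicates 1 or 2 or ND-fed WT male replicate 1 (log2 changes -0.52 to -0.49, adjusted p 0.0616 to 0.0823).

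Of the 8 CDAHFD calls between the sexes, 5 were lost without single libraries. Sult2a1 (6.41, SE 1.14, adjusted p = 0.000717) and Sult2a2 (6.41, SE 0.85, adjusted p = 1.97e-05) were higher in CDAHFD-fed WT females, where the Sult2a1 libraries overlapped between the sexes and those of Sult2a2 did not. Without CDAHFD-fed WT female replicate 1 their log2 differences were 4.54 and 5.22, and without CDAHFD-fed WT male replicate 4 that of Sult2a2 was 7.36. Fitted to these 2 groups only, Sult2a1, Sult2a3, Sult2a5 and Sult2a7 did not pass the filter. From pooled counts Sult2a5 was 58.8-fold higher (exact 95% counting interval 10.1 to 2368), called no longer without CDAHFD-fed WT female replicate 1 (adjusted p = 0.0988). Sult2a3 was 49.2-fold higher (exact 95% counting interval 8.35 to 1989), and its call was lost without CDAHFD-fed WT female replicate 1 or CDAHFD-fed WT male replicates 2 or 3 (adjusted p 0.052 to 0.125). Sult2a7 was 11.99-fold higher (exact 95% counting interval 1.71 to 521), a call lost without any 1 of 14 of the 32 libraries (adjusted p 0.0503 to 0.2). Fitted changes of Sult2a5 and Sult2a3 were more than 1.5-fold smaller without CDAHFD-fed WT female replicate 1 and larger without CDAHFD-fed WT male replicate 4. That of Sult2a7 was smaller by as much without CDAHFD-fed WT female replicate 2 and larger without CDAHFD-fed WT male replicate 1. Sult1a1 was higher in females (0.74, SE 0.18, adjusted p = 0.00784), with no overlap. Ugt1a6b (-0.55, SE 0.18, adjusted p = 0.0394) and Ugt2b35 (-0.48, SE 0.15, adjusted p = 0.0361) were lower in females, and both calls were lost with library size only (-0.49, adjusted p = 0.089 and -0.43, adjusted p = 0.0819). The first was also lost without CDAHFD-fed WT female replicates 1, 2, 3 or 4 or CDAHFD-fed WT male replicates 1 or 2 (log2 changes -0.61 to -0.42, adjusted p 0.0569 to 0.147), and the second without CDAHFD-fed WT female replicates 2 or 4 or CDAHFD-fed WT male replicates 1, 2 or 3 (log2 changes -0.51 to -0.41, adjusted p 0.052 to 0.132).

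With the replicate number as a block, a pairing that is not stated for these mice, none of the 8 calls on CDAHFD was kept, and all genes went from 718 higher and 828 lower to 84 and 97. The values were 5.69, adjusted p = 0.233 for Sult2a1, 4.95, adjusted p = 0.0849 for Sult2a2, 0.84, adjusted p = 0.0803 for Sult1a1, -0.60, adjusted p = 0.237 for Ugt1a6b and -0.65, adjusted p = 0.0876 for Ugt2b35. For Sult2a3, Sult2a5 and Sult2a7 the adjusted p was 0.398, 0.452 and 0.219 with the block, and Sult2a7 was also lost with no low-count filter (adjusted p = 0.052). Sult2a8, lower in females, was the 1 member called with the block (-1.37, adjusted p = 0.037). With no low-count filter Sult2a8 was also called lower (-0.67, adjusted p = 0.001) and Sult1e1 higher in females (1.89, adjusted p = 3.02e-12). The libraries of both genes overlapped between the sexes, and all genes gave 783 higher and 851 lower of 27613 in that fit. Sult1e1 was called higher without CDAHFD-fed WT male replicate 1 as well (3.16, adjusted p = 0.0441). On ND the block ended the calls of Ugt1a6b (-0.60, adjusted p = 0.158), Sult1c2 (0.72, adjusted p = 0.238) and Sult1e1 (adjusted p = 0.072), beside that of Ugt1a9, and added Ugt2b37, higher in females (2.12, adjusted p = 0.0355), with 430 higher and 378 lower of all genes. Ugt1a1 was higher in females on ND with library size only, with only the groups compared or without CDAHFD-fed Cyp2b-null female replicate 3 (0.46 to 0.56, adjusted p 0.00976 to 0.0452), and on CDAHFD Ugt1a6a was lower without CDAHFD-fed Cyp2b-null female replicate 3 (-0.43, adjusted p = 0.0467) and Ugt2b34 without CDAHFD-fed WT female replicate 1 or CDAHFD-fed Cyp2b-null female replicate 3 (-0.42 to -0.34, adjusted p 0.0314 to 0.0478).

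Whether the diet acted differently in the sexes was tested directly. In WT mice 2 of 29 members were called, Sult1d1 and Sult3a1, against 0.670% lower and 0.300% higher of all genes. For diet, Sult1d1 was called lower in females and not called in males, a difference of -1.35 (SE 0.26, adjusted p = 0.00555). For Sult3a1 (adjusted p = 0.0236) males were at or under the floor on both diets and had nothing to lose, so the test does not compare 2 falls, and its call was lost without CDAHFD-fed WT male replicate 2 or 3 (adjusted p 0.174 to 0.179) and with only the groups compared (adjusted p = 0.0639), which leaves 1 member called in each case. In Cyp2b-null mice edgeR called 4 of 29 members, all with the larger fall in males, against 1.31% higher and 2.09% lower of all genes. They were the male-high Ugt2b38 (1.43, SE 0.32, adjusted p = 0.00997), Ugt2b1 (1.18, SE 0.28, adjusted p = 0.0132) and Ugt2b5 (0.75, SE 0.20, adjusted p = 0.0268), with Ugt2b36 (0.75, SE 0.17, adjusted p = 0.0119). The Ugt2b5 call was lost without ND-fed Cyp2b-null female replicates 1 or 4, CDAHFD-fed Cyp2b-null female replicate 3, ND-fed Cyp2b-null male replicate 4 or CDAHFD-fed Cyp2b-null male replicate 3 (log2 changes 0.67 to 0.72, adjusted p 0.055 to 0.0808). In WT mice the same 4 gave 1.20 (SE 0.33, adjusted p = 0.079), 0.92 (SE 0.28, adjusted p = 0.119), 0.55 (SE 0.20, adjusted p = 0.23) and 0.29 (SE 0.17, adjusted p = 0.623), where Ugt2b38 was called with no low-count filter, with the replicate block, with DESeq2 or without ND-fed WT female replicate 1, CDAHFD-fed WT female replicate 2 or ND-fed WT male replicate 4 (1.18 to 1.45, adjusted p 0.014 to 0.0455) and Ugt2b1 with no low-count filter or without CDAHFD-fed WT female replicate 4 or CDAHFD-fed WT male replicate 1 (0.94 to 1.21, adjusted p 0.00197 to 0.0395). DESeq2 gave 1 higher and 4 lower in WT mice (59 and 157 of all 14020 genes). Its lower calls added Sult2a1 (adjusted p = 0.00746) and Sult2a2 (adjusted p = 0.00234). With no low-count filter 2 were higher and 7 lower (139 and 330 of all 27613 genes). Lower calls added there were Ugt1a5 (-1.22, adjusted p = 0.000161), Ugt1a9 (-0.77, adjusted p = 0.049), Sult1e1, Sult2a1 and Sult2a2. Of these, Sult1e1, Sult2a1 and Sult2a2 had a male group at or under the floor. The single direction in Cyp2b-null mice depended on the tool and the filter. DESeq2 called 7, the same 4 and in the other direction Sult1e1 (adjusted p = 0.00681), Sult2a2 (adjusted p = 0.0383) and Sult3a1 (adjusted p = 6.09e-05), each with a male group at or under the floor, beside 288 higher and 413 lower of all 14020 genes. With no low-count filter 5 were called in each direction (375 higher and 548 lower of all 27613 genes), among them Ugt1a5 (-0.86, adjusted p = 0.0174) and Sult1d1 (-0.75, adjusted p = 0.0229).

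**Figure D3:**
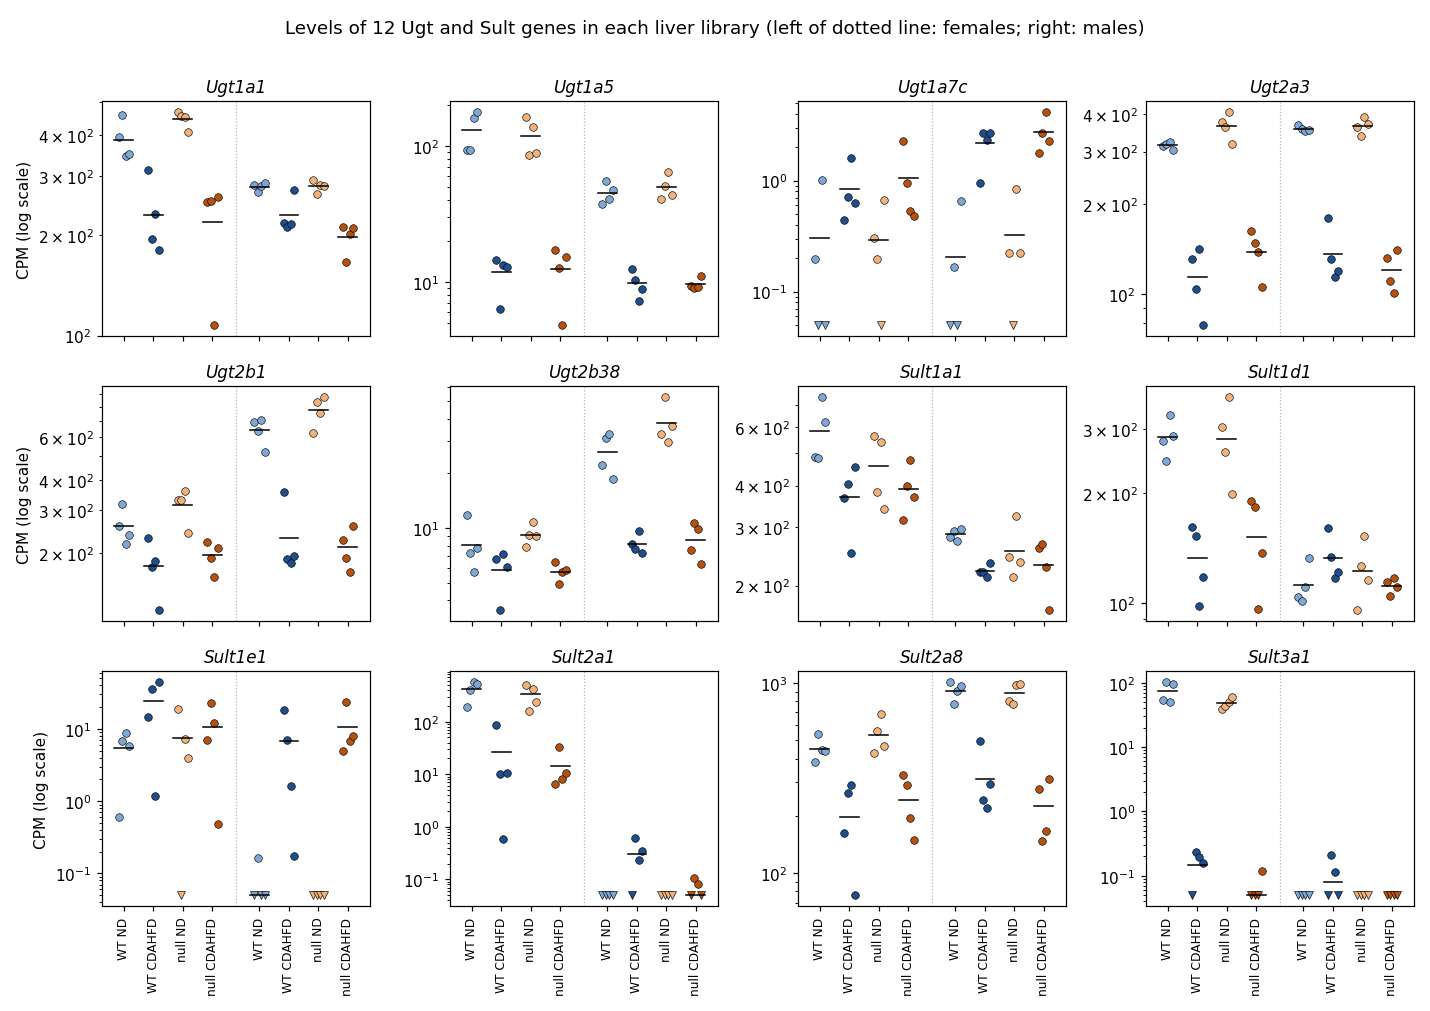
CPM on a log axis of members in the 8 groups, with a dot for each of 4 libraries, a line for the group mean and triangles at 0.05 CPM for libraries with no count. The members shown are Ugt1a1, Ugt1a5, Ugt1a7c, Ugt2a3, Ugt2b1, Ugt2b38, Sult1a1, Sult1d1, Sult1e1, Sult2a1, Sult2a8 and Sult3a1. Sult2a1 has no count in ND-fed males, and Ugt1a5 lies below 18 CPM in every CDAHFD-fed library.

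Per kilobase of all exon bases, the order of the members differed by sex and diet. In ND-fed WT females Sult2a2 (482 CPM per kb), Sult2a1 (408), Sult1a1 (386) and Ugt2b5 (326) stood highest. The spread of Sult2a1, from 189.9 to 567 CPM, leaves its place among these neighbours unsettled. Exon lengths came from GENCODE and may differ from the gene models behind the counts. Sult2a2 stood first through its shorter exons, 741 bases against 1020 for Sult2a1, which had the higher mean CPM. Other genes also held 34.6% of the 100-base windows of Sult2a2. In CDAHFD-fed WT females Sult1a1 (245) and Ugt2b5 (226) led, with Sult2a2 at 64.5 and Sult2a1 at 26.3 CPM per kb. In all 4 male groups Ugt2b5 was highest, at 509 CPM per kb in ND-fed and 242 in CDAHFD-fed WT males, followed by Ugt2b36 at 296 and 176. The order also depends on the length used for the Ugt1a genes, which share exons. By the exon bases that are its own, Ugt1a1 would stand at 423 and 252 CPM per kb in ND-fed and CDAHFD-fed WT females and 306 and 251 in WT males, above Ugt2b5 in all but the ND-fed males.

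Genes around the 2 families were read from lists that the rule does not use. None of the list genes named here was called for genotype or for its interaction with diet. Calls for diet are given in the order WT females, Cyp2b-null females, WT males and Cyp2b-null males, where of all genes 10.2%, 13.9%, 15.0% and 17.1% were lower and 13.9%, 16.9%, 18.0% and 20.3% higher. Of the 9 tested among 10 genes for the sulfate donor PAPS, 2, 3, 2 and 3 were called lower and 0, 1, 0 and 0 higher. Papss2, which makes PAPS, was lower in all 4, with log2 changes of -1.15 (SE 0.21, adjusted p = 0.000282), -1.10 (SE 0.21, adjusted p = 0.00038), -0.81 (SE 0.15, adjusted p = 0.000182) and -0.53 (SE 0.14, adjusted p = 0.00582), where the last call was lost with library size only (-0.18, adjusted p = 0.298). Of 6 tested among 7 genes that remove glucuronide or sulfate, none was lower and 5, 3, 3 and 2 were higher. They included Gusb, the lysosomal beta-glucuronidase, in all 4.

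Of 11 tested among 12 transporters of conjugates, 4, 6, 5 and 6 were lower and 0, 1, 1 and 2 higher. With transcription factors given as examples only, Hnf4a, a regulator of hepatocyte genes, was lower in all 4, with log2 changes of -0.58 (SE 0.16, adjusted p = 0.0114), -0.78 (SE 0.16, adjusted p = 0.00102), -0.74 (SE 0.12, adjusted p = 7.12e-05) and -0.39 (SE 0.12, adjusted p = 0.0134). Its calls in WT females (-0.24, adjusted p = 0.247) and Cyp2b-null males (-0.03, adjusted p = 0.875) were lost with library size only, and that in WT females also without ND-fed WT female replicate 2 (log2 change -0.38, adjusted p = 0.0606). Hnf4a does not stand for the other factors, since the list also held a factor called higher in WT females. What such factors contribute to the values of the members was not tested. Of 11 tested among 12 textbook targets of xenobiotic receptors, 5, 3, 2 and 4 were lower and 1, 4, 3 and 3 higher.

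The members were also compared by the bases around their RefSeq starts. Promoters of 300 bases, 250 before and 50 after the start, were taken from RefSeq on GRCm38.p6 and matched 35 of the 41 members by symbol, with no entry for Ugt1a6b, Ugt3a2, Sult2a1, Sult2a2, Sult2a7 and Sult4a1. For Sult1a1, Sult1b1, Sult2a8, Sult2b1, Sult3a1, Sult3a2 and Sult5a1 the RefSeq start lay well inside the gene as placed in the annotation. Motifs were searched on both strands. The STAT element TTCNNNGAA was in 2 members, Ugt1a6a and Sult3a1, and in 8.30% of all promoters, and CAAAGTCCA, the core read by HNF4, in Sult1b1 and in 0.475% of all. The antioxidant response core TGACNNNGC was in 0 members and 12.4% of all promoters, and the xenobiotic response core GCGTG in 4 members, Ugt1a5, Sult1b1, Sult1d1 and Sult2b1, and 32.4% of all. Members share clusters and may share sequence, no matches of the motifs in them overlapped, and a match describes letters, not binding. Shown here is the promoter of Sult3a1 (chr10:33857472-33857771, plus strand), the transcript nearly lost in CDAHFD-fed females, written 5′ to 3′ along its gene with its STAT element in capitals. The annotated gene spans chr10:33851020-33879475.
Sult3a1: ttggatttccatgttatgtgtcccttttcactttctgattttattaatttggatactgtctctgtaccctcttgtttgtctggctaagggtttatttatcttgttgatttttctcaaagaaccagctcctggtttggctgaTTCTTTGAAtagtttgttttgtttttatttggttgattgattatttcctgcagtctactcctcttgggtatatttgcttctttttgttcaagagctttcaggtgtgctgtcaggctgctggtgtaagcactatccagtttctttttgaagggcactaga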

How the data were processed

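Bulk liver RNA of 32 mice was measured, 4 libraries for each of 8 groups of sex, genotype and diet. The deposited values are raw counts per gene in a female and a male table. Per the submitters' notes, the authors extracted RNA with TRIzol, made NEB Next Ultra libraries, sequenced them on a NovaSeq, used FastQC and Trimmomatic on the reads and GSNAP for alignment (GRCm38.p6), and took counts with Subread featureCounts for tests in edgeR. Versions and the treatment of strand and of reads that fit several genes are not stated.

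From the counts, R 4.3.3 with edgeR 4.0.16 and limma 3.58.1 gave TMM factors, CPM, and quasi-likelihood F-tests with Benjamini-Hochberg adjustment over all genes tested, called at an adjusted p under 0.05. Low counts were filtered with filterByExpr (smallest count 10, smallest total 15). Each sex was fitted over its 4 groups (13226 genes in females, 13460 in males), and effects between sexes over all 8 groups (14020 genes). Library totals ran from 2906411 to 10166959. Where a group total was 0, a fold is a bound against 3 counts over the group, and where it was 1 to 3, a ratio of the counts pooled over each group, with an exact 95% counting interval. Family sums are summed CPM and were not tested.

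Per-library values are given for most comparisons called, and the rest by mean, range or count. Members and lists were chosen with earlier results of these data known. No test of the list as a set was made. Some list genes, counts over lists that hold them, and a motif are not reported here.

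Alternatives were library size only, RLE factors, no filter, a filter of 1 CPM in 4 libraries, the replicate number as a block, only the groups compared, DESeq2 1.42.0, an adjusted p under 0.1, and each library left out in turn. Both fits were tested on simulated data with 200 changed genes, and no result given here rests on the outcome. No library was left out.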

Additional observations from a re-analysis of the deposited data

Results flagged for a closer look

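A group of 4 libraries was marked when the gap between 1 library and the other 3 took so large a share of the group range that it passed a limit (Dixon's test) which chance passes in about 1 of 20 groups. It marked 16 of the 243 groups looked at (6.58%). The values below are given without an explanation, and none was tested.

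CDAHFD-fed Cyp2b-null female replicate 3 was marked low for Ugt1a1 (108 CPM, others 252 to 261), Ugt1a6b (13.7 CPM, others 26.3 to 28.0) and the Ugt1 sum (164 CPM, others 364 to 390.3). CDAHFD-fed Cyp2b-null male replicate 4 was marked high for Ugt1a5 (11.05 CPM, others 9.04 to 9.32) and Ugt1a6a (39.5 CPM, others 29.2 to 30.6). CDAHFD-fed Cyp2b-null male replicate 2 was marked low for the Ugt1 sum (248 CPM, others 310.5 to 320.0) and high for Sult1e1 (23.5 CPM, others 4.98 to 7.98).

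CDAHFD-fed WT female replicate 1 was marked high for Sult2a1 (85.8 CPM, others 0.597 to 10.7) and Sult2a5 (8.73 CPM, others 0.199 to 0.942), and CDAHFD-fed Cyp2b-null female replicate 2 high for Sult2a1 (33.2 CPM, others 6.52 to 10.5). Other single libraries were CDAHFD-fed WT male replicate 4, high for Ugt1a1 (273 CPM, others 211 to 217), and CDAHFD-fed WT male replicate 1, high for Ugt2b1 (359 CPM, others 182 to 195). ND-fed Cyp2b-null female replicate 1 was low for Ugt3a1 (58.0 CPM, others 71.7 to 72.4), and CDAHFD-fed Cyp2b-null female replicate 4 low for Sult1b1 (14.3 CPM, others 21.8 to 22.8). Of the libraries themselves, ND-fed WT male replicate 2 had a low TMM factor (0.820, others 0.857 to 0.865) and ND-fed Cyp2b-null male replicate 1 a high total (10166959 counts, others 5100620 to 5466511).

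The test of diet between females and males called 6 members in edgeR. In Cyp2b-null mice these were Ugt2b1 (adjusted p = 0.0132), Ugt2b5 (adjusted p = 0.0268), Ugt2b36 (adjusted p = 0.0119) and Ugt2b38 (adjusted p = 0.00997), with the larger fall in males. In WT mice they were Sult1d1 (adjusted p = 0.00555), with the larger fall in females, and Sult3a1 (adjusted p = 0.0236), which males had at or under the floor on both diets, so that no 2 falls were compared. The calls of Sult3a1 and of Ugt2b5 were lost without some single libraries.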

How the results depend on the processing

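Of the 98 changes of named members that were called, 98 kept direction and call with RLE factors and 98 with DESeq2, 97 with a filter of 1 CPM in 4 libraries, 96 with no filter and 86 with the replicate number as a block. With only the groups compared 88 of 91 kept them, and the other 7 did not pass the filter of that fit (Ugt1a7c and Sult1e1 for diet in WT males, Sult1e1 between the sexes on ND, and Sult2a1, Sult2a3, Sult2a5 and Sult2a7 between the sexes on CDAHFD). Calls in WT males then went from 10 lower and 2 higher to 11 lower and 0 higher. Over single libraries left out, 1996 of 2096 kept both. Beside Sult1e1 in males, fitted changes with a group at or under the floor moved by more than 1.5-fold without single libraries for Sult3a1 in Cyp2b-null females, Sult1e1 and Sult2a3 between the sexes on ND and Sult2a3, Sult2a5 and Sult2a7 between the sexes on CDAHFD. Library size only was the alternative with the most losses, with 74 the same, 23 below the threshold and 1 reversed. The reversed member was Ugt2b34 in WT males (log2 change 0.0012), and among the list genes Slco1b2 in WT males was reversed (0.0148). The cause was not tested. The fit to only the groups compared was not run for the interaction of diet and genotype, which needs every group of a sex.

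Counts of called members changed as follows, with all genes higher + lower in brackets, and the cause was not tested. Between genotypes in ND-fed females, where edgeR called 0 [2 + 8 of 13226], there were 2 with no filter [50 + 72 of 25490], 1 with only the groups compared [3 + 10 of 11785] and 1 with DESeq2 [8 + 15 of 13226]. In CDAHFD-fed females there were 2 [23 + 46 of 25490] in place of 0 [0 + 3 of 13226] with no filter, and for the interaction of diet and genotype in females 1 [26 + 20 of 25490] in place of 0 [0 + 0 of 13226]. Between the sexes on CDAHFD, 8 [718 + 828 of 14020] became 1 with the replicate block (Sult2a8, which was not among the 8) [84 + 97 of 14020] and 4 with only the groups compared [742 + 714 of 12779]. For the effect of diet between the sexes in WT mice, 2 [42 + 94 of 14020] became 9 with no filter (2 higher and 7 lower) [139 + 330 of 27613], 1 with only the groups compared [23 + 56 of 13420] and 5 with DESeq2 (1 higher and 4 lower) [59 + 157 of 14020]. In Cyp2b-null mice 4, all in 1 direction [184 + 293 of 14020], became 10 with no filter (5 in each direction) [375 + 548 of 27613] and 7 with DESeq2 (4 and 3) [288 + 413 of 14020].

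With each library left out in turn, the number called for diet ran from 13 to 20 in WT females, 15 to 19 in Cyp2b-null females, 12 to 14 in WT males and 16 to 17 in Cyp2b-null males. For genotype it ran from 0 to 1 in ND-fed females, with Sult2a7 called without CDAHFD-fed Cyp2b-null female replicate 4, and was 0 throughout in CDAHFD-fed females, in males on both diets and for both interactions. Between the sexes it ran from 16 to 20 on ND and 4 to 10 on CDAHFD, with 10 without CDAHFD-fed Cyp2b-null female replicate 3, 5 without CDAHFD-fed WT female replicate 1 or 2 or CDAHFD-fed WT male replicate 3, and 4 without CDAHFD-fed WT male replicate 2. For the effect of diet between the sexes it ran from 1 to 3 in WT mice, with 1 without CDAHFD-fed WT male replicate 2 or 3, and from 3 to 4 in Cyp2b-null mice.

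The replicate number was used as a block although no pairing is stated. Correlations between libraries with the same replicate number ran from -0.0987 to 0.143 over 24 pairs of libraries in females, with 2 above 0.1, and from -0.169 to 0.281 over 24 pairs in males, with 3 above 0.1.

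With plain library sizes, 17 of the mean family sums moved by more than the spread of their group. For Ugt1 they were 592 CPM in ND-fed WT females, 398 in ND-fed and 389 in CDAHFD-fed WT males, and 417 in ND-fed and 336 in CDAHFD-fed Cyp2b-null males. For Ugt2 they were 1905 CPM in CDAHFD-fed WT females, 2197 in CDAHFD-fed Cyp2b-null females, 2948 and 2115 in ND-fed and CDAHFD-fed WT males, and 3543 and 2097 in the Cyp2b-null males. For Ugt3 they were 471 CPM in CDAHFD-fed WT females, 542 in ND-fed Cyp2b-null females, 436 in ND-fed WT males and 476 in ND-fed Cyp2b-null males. For Sult they were 1149 CPM in ND-fed WT males and 684 in CDAHFD-fed Cyp2b-null males. This scale differs from TMM only in the factor of each library.

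Depth limits the low members most. With 4 libraries per group and totals from 2906411 counts, a member at the floor has a change that only a bound or a wide interval describes, and 12 members did not pass the filter used, of which Sult3a2 passed that of 1 CPM in 4 libraries and was called there for diet in both genotypes of females and between the sexes on ND. Members that share exons or sequence may hold each other's reads, and bulk tissue does not separate cell numbers from levels per cell.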
